A study of Urocitellus parryii with 3 samples.

Results

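In the arctic ground squirrel, Urocitellus parryii, a rodent that hibernates, liver microRNAs (miRNAs) were compared between early arousal, when a torpid animal begins to rewarm, and post-reproduction, an active stage outside the hibernation season. A mouse miRNA entry entered the comparison where at least 1 of its probes had most of its spots well above background on both arrays, and 136 of 567 entries did. The choice used detection and not the difference between stages, and the entries are called measured miRNAs from here on. Each was ranked by its difference, including differences below 2-fold, and then grouped with its neighbours in the mouse genome and with the miRNAs of the same seed family.

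The labels' protocols state that TRIzol was used to extract total RNA, that equal amounts from squirrels of 1 stage were combined into 1 pool, and that 100 ng of each pool was labelled with the dye Cy3. A late torpor pool on another array of the same slide enters the choice of probes for scaling and is otherwise given only for its values. No genotype, age, sex or treatment is given in the labels, nor is the number of squirrels in a pool. With 1 pool and 1 array per stage there was no replicate and no test, and the stage cannot be told apart from the pool or from the position on the slide. The probes were made for mouse miRNAs, so a squirrel miRNA whose sequence differs may be read weakly or not at all, and how many differ was not tested.

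A miRNA is a short RNA cut from a hairpin precursor that lowers the output of matching messenger RNAs. Its seed, a short run near the 5′ end, does most of the target recognition, so miRNAs of 1 seed family share many targets. Hairpins that lie close together are often transcribed as 1 precursor, and either arm of a hairpin can give a mature miRNA, with the less abundant arm traditionally marked by a star.

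The early arousal array detected 152 of the 567 mouse entries and the post-reproduction array 143. Of the 136 measured miRNAs, 106 were read by at least 2 probes and 30 by 1 probe. A difference is the log2 level in early arousal minus that in post-reproduction, where a level is the mean log2 spot intensity minus the array's 75th percentile over the 250 probes that all 3 arrays detected. The percentile stood at 350.4 intensity units for early arousal and 398 for post-reproduction, so unscaled intensities, which are the ones quoted below, give differences that are lower by 0.185. The ± value after a difference is the spot-based standard error (SE) of the 2 arrays together. It had a median of 0.031 and covers spot spread only. In the 106 miRNAs with several probes, the probes' differences spanned 0.073 in the median and 0.54 at most. miR-122, the main hepatocyte miRNA, was at 33094 intensity units in early arousal, 37937 during late torpor and 34109 in post-reproduction.

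Most measured miRNAs differed little between the stages. The differences ran from -1.08 to 1.94, with a median of 0.061 and quartiles of -0.22 and 0.27, and 112 of the 136 (82.4%) lay within 0.5 of 0. Of all measured miRNAs, 75 (55.1%) were above 0 and 61 (44.9%) below. A fixed rule of size was used in place of a test: a difference past the fold, more than 2 SE from 0, and of 1 sign in every probe used. At 2-fold, 4 miRNAs (2.94%) were higher in early arousal and 1 (0.735%) was lower. At 1.5-fold, 7 (5.15%) were higher and 9 (6.62%) lower. The members nearest that threshold were miR-574-5p at 0.69 just inside and miR-19b at 0.58 just outside on the higher side, and miR-152 at -0.60 just inside and miR-27a at -0.53 just outside on the lower side.

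Where 0 lies depends on the scaling, and this touches every sign given here. The 6 other ways of scaling whole arrays moved all differences together, by -0.37 to 0.041. They left ranks and distances from the median of all measured miRNAs as they were, so a sign against that median could not turn under them. Past 1.5-fold, the 7 higher and 9 lower became 4 and 35 with all probes in the scaling, 4 and 27 when scaled on positive control probes, 4 and 17 without scaling, 5 and 17 with unfloored probes, and 11 and 8 with the median of the detected probes. Past 2-fold, the 4 higher and 1 lower became 2 and 8 with all probes, 2 and 6 on control probes, and 3 and 3 without scaling or with unfloored probes. Quantile normalization, which is not 1 of these 6 and changes distances from the median, gave 4 and 2. Families and clusters are therefore described both against 0 and against the median of all 136.

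**Figure D1:**
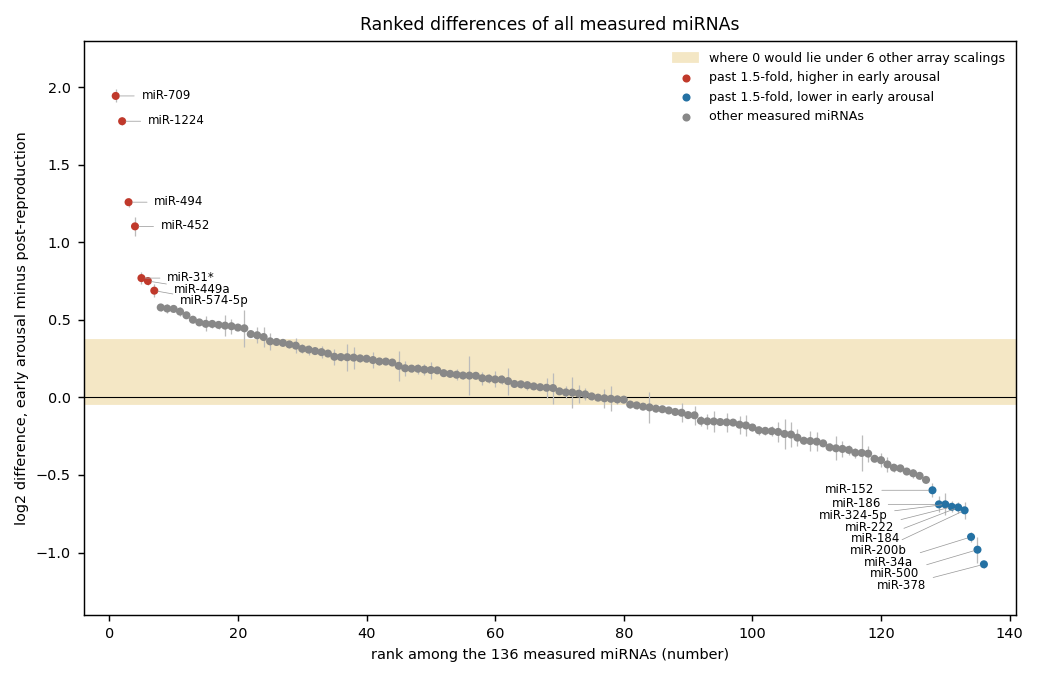
Log2 difference (early arousal minus post-reproduction, vertical axis) of each of the 136 measured miRNAs by rank (horizontal axis), with bars of 1 SE from spots. Red points are the 7 miRNAs higher past 1.5-fold and blue points the 9 lower. The band shows where 0 would lie under 6 other array scalings, and most grey points lie in or near it.

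The 4 miRNAs past 2-fold on the higher side were miR-709, miR-1224, miR-494 and miR-452. miR-709 was first in rank, at 99.8 intensity units in early arousal, 41.9 during late torpor and 29.5 in post-reproduction. The early arousal array was the high one, and the other arrays lay closer to each other. The difference of 1.94 ± 0.04, a 3.85-fold higher level, rested on 1 probe with 10 spots per array. The other miR-709 probe was at 37.4, 15.4 and 10.3 in that order of arrays and was not detected in post-reproduction. The target of miR-709 lies on mouse chromosome 8, at 86610073 to 86610084 (mm9, as all positions here), and is 12 bases long in the files.

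miR-1224, which lies in a short intron and is a mirtron (a hairpin released by splicing), followed in rank. Its 3 measured probes were at 175, 541 and 1120 intensity units in early arousal and at 53.8, 178 and 400.3 in post-reproduction. Late torpor was in between on each, at 79.1, 262 and 533. All 3 probes were thus higher in early arousal, by 1.67 to 1.89, and the mean difference was 1.78 ± 0.03 (3.44-fold). Another probe was at 10.3 in early arousal and 3.80 in post-reproduction, and was detected only in the first. Its target lies on chromosome 16, at 20604534 to 20604545.

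miR-494 belongs by position to the imprinted Dlk1-Dio3 cluster, most of whose miRNAs are quiet in adult liver. It was at 125 intensity units in early arousal, 92.2 during late torpor and 59.2 in post-reproduction, which again put early arousal highest. The difference was 1.26 ± 0.03 (2.39-fold), and its probes were at 1.256 and 1.262. The only other measured entry of that region was miR-127, at 12.3 intensity units in early arousal and 16.6 in post-reproduction, on the other side of 0 at -0.24 ± 0.08. The target of miR-494 is on chromosome 12, at 110953584 to 110953598.

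miR-452, encoded with miR-224 within an intron of a GABA receptor subunit gene on the X chromosome, was at 39.2 intensity units in early arousal, 32.2 during late torpor and 20.8 in post-reproduction. Both of its probes were near the mean difference of 1.10 ± 0.06 (2.15-fold). Here late torpor was nearer to early arousal than to post-reproduction. miR-494 and miR-452 were both short of 2-fold under the all-probe and the control-probe scaling, with strict detection (every spot well above background) and with normexp. miR-452 was also short of it without scaling (0.92), with unfloored probes (0.92) and with total gene signal (0.85).

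The other 3 miRNAs higher past 1.5-fold were each near 1.6 to 1.7-fold. miR-31*, the less abundant arm of the miR-31 hairpin, was at 47.8 intensity units in early arousal, 50.8 during late torpor and 31.9 in post-reproduction, with a difference of 0.77 ± 0.04. For it the post-reproduction array was the low one. miR-449a, a miRNA of multiciliated epithelia that shares its seed with miR-34a, was at 837, 543 and 565 in that order of arrays, with a difference of 0.75 ± 0.03. For it, in contrast, late torpor was close to post-reproduction and early arousal stood above both. miR-574-5p was at 53.6, 42.4 and 37.8 intensity units, with a difference of 0.69 ± 0.04. Its 3 arrays were spread with early arousal on top. All 3 of these miRNAs were short of 1.5-fold without scaling, under the all-probe and the control-probe scaling, with strict detection and with total gene signal. miR-449a and miR-574-5p were also short of it with unfloored probes, and miR-31* and miR-574-5p with normexp.

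**Figure D2:**
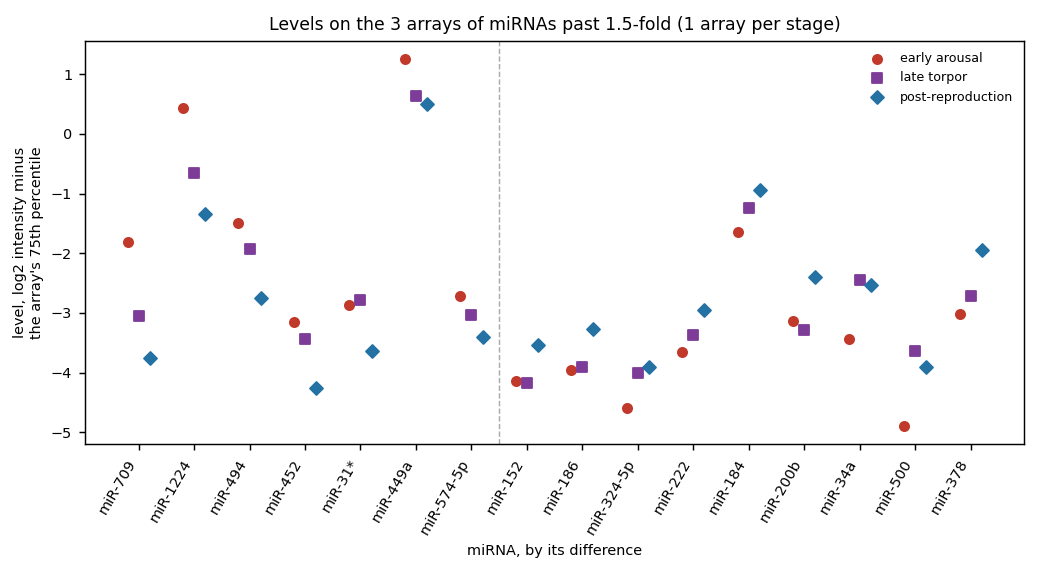
Level (log2 intensity minus the array's 75th percentile, vertical axis) of the 16 miRNAs past 1.5-fold on the 3 arrays, in order of their difference (horizontal axis), with 1 array per stage and no error bar. Late torpor (squares) lies between early arousal (circles) and post-reproduction (diamonds) in 11 of the 16.

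miR-378 had the lowest difference and was the only miRNA lower past 2-fold. It is encoded within Ppargc1b, whose product is a coactivator of mitochondrial metabolism. It was at 43.3 intensity units in early arousal, 53.4 during late torpor and 104 in post-reproduction, so that both hibernation arrays lay well under the post-reproduction array. The difference was -1.08 ± 0.02 (2.11-fold lower), with probes at -1.10 and -1.05.

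miR-500 and miR-34a came next. miR-500, of an X-linked cluster in an intron of the chloride channel gene Clcn5, was at 11.8 intensity units in early arousal, 28.1 during late torpor and 26.4 in post-reproduction. miR-34a, a direct transcriptional target of p53, was at 32.4, 63.9 and 68.8 in the same order. In both, early arousal was the low array and late torpor was close to post-reproduction. The differences were -0.98 ± 0.08 for miR-500 and -0.90 ± 0.03 for miR-34a. The early arousal level of miR-500 is near 10.1, the dimmest spot signal marked well above background on that array. miR-34a lies on chromosome 4, at 149442584 to 149442603.

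The remaining 6 on the lower side were at -0.73 to -0.60. miR-200b, an epithelial miRNA that acts on the Zeb transcription factors, was at 40.1 intensity units in early arousal, 35.6 during late torpor and 75.4 in post-reproduction (difference -0.73 ± 0.05, 1 probe). miR-186 was at 22.4, 23.4 and 41.1 (-0.69 ± 0.05), and miR-152, a relative of miR-148a, at 19.9, 19.4 and 34.2 (-0.60 ± 0.04). In these 3 the hibernation arrays were alike and post-reproduction was high. miR-184 was at 112, 148 and 209 intensity units (-0.71 ± 0.04). miR-222, which shares a seed and a cluster with miR-221, was at 27.7, 33.6 and 51.3 (-0.71 ± 0.04). miR-324-5p, a miRNA known to act on the Hedgehog pathway, was at 14.6, 21.7 and 26.7 (-0.69 ± 0.07, 1 probe). In these last 3 late torpor was in between.

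Of the 14 other settings, 6 only shift whole arrays, so the distance from the median of all measured miRNAs cannot change in them. The 16, chosen for large differences, each kept their sign against that median in all of the 8 others that measured them. Their size was smaller with normexp, a model-based background correction after which a constant is added to every spot, and 4 of the 16 still passed 1.5-fold against 0, all on the higher side. Against the median, miR-709 was then at 0.92 in place of 1.88, and miR-1224 1.32 in place of 1.72. miR-378 was at -0.60 from the median in place of -1.14.

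**Figure D3:**
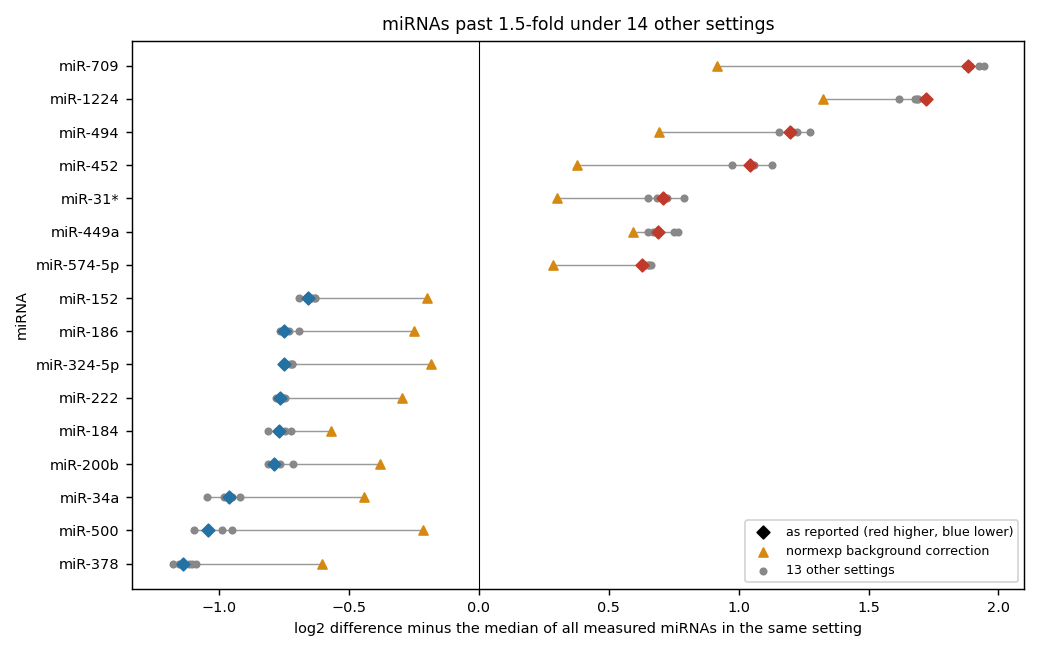
Difference minus the median of all measured miRNAs in the same setting (log2, horizontal axis) for the 16 miRNAs past 1.5-fold (vertical axis). Diamonds are the values as reported, triangles normexp and grey points the 13 other settings, and every point stays on the side of 0 of its diamond. In 6 of the 13 a grey point cannot move from its diamond, since these only shift whole arrays.

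Of the 29 seed families listed, 20 had at least 2 measured members, and these held 59 miRNAs. In 8 families every measured member was above 0 and in 6 every member was below, beside 55.1% above and 44.9% below among all measured miRNAs. Against the median of all 136, 6 families were wholly above, 6 wholly below and 8 mixed.

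The families wholly on the higher side were those of miR-15 and miR-16, miR-17 and miR-20, miR-19, miR-25 and miR-92, miR-26 and miR-30. The miR-15 and miR-16 family, which restrains the cell cycle by acting on cyclin messages, had 6 of 6 measured members above 0 and a median of 0.45. miR-15a was at 237 intensity units in early arousal, 252 during late torpor and 182 in post-reproduction, a difference of 0.57 ± 0.02. miR-15b followed at 0.50, miR-16 at 0.45 and miR-322 at 0.45, with the last at a level near the floor (14.7 and 12.3). miR-195 at 0.12 and miR-497 at 0.08, which are made from a cluster of their own, were the lowest of the family, and both were below 0 in 7 of the 14 other settings. Against the median, all 6 stayed above except miR-195 after quantile normalization.

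The families of the miR-17 cluster and its paralogs, which favour proliferation and blood cell formation, lay close by. The miR-17 and miR-20 family had 4 of 4 members above 0 with a median of 0.33, from 0.15 for miR-106b to 0.47 for miR-20b, and the median turned to -0.045 when all probes entered the scaling. The miR-19 family had a median of 0.44 and the miR-25 and miR-92 family 0.44. In each of these 3 families every measured member stayed above the median of all miRNAs in each setting that measured it. miR-92a was at 493 intensity units in early arousal, 416 during late torpor and 377 in post-reproduction.

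The miR-30 family had 5 of 5 members above 0, from 0.09 for miR-30c to 0.41 for miR-30e, with a median of 0.23 that turned to -0.14 when all probes entered the scaling. Against the median of all miRNAs, miR-30c crossed with normexp, with the brightest probe and in the brighter part of the miRNAs. miR-30e was at 136 intensity units in early arousal and 116 in post-reproduction. The miR-26 family was at 0.14 and 0.28, with a median that was also below 0 there. The miR-29 family, which acts on collagen messages, was split by size: miR-29a at 0.35 ± 0.02 stood apart from miR-29b at 0.066 and miR-29c at 0.0066, and the median of 0.066 was below 0 in 7 settings.

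**Figure D4:**
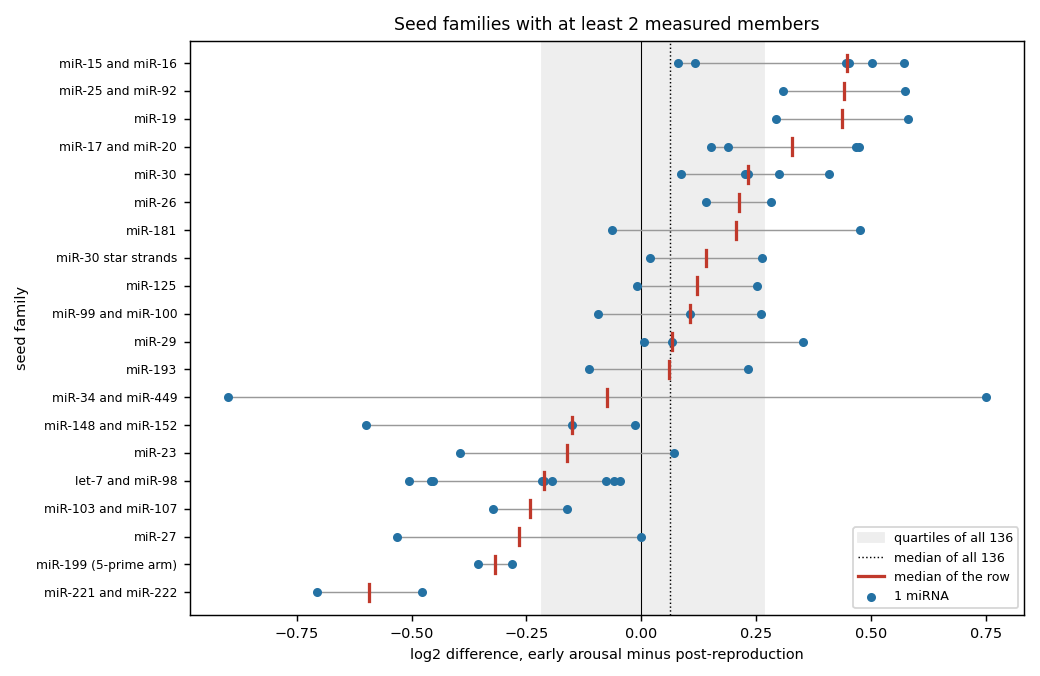
Log2 difference (horizontal axis) of every measured member (blue points) of the 20 seed families with at least 2 measured members, with the family median (red bar), the median of all 136 (dotted line) and their quartiles (grey band). let-7 and miR-98 have all 9 points below 0, and miR-34 and miR-449 span the widest range. Signs of families near 0 turn with the scaling, as for miR-26, miR-29 and miR-30.

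On the lower side, let-7 and miR-98, the family with the most listed members and one that restrains growth and developmental programs, had 0 of 9 members above 0. The lowest difference was that of let-7b, -0.51, the highest that of let-7f, -0.05, and the median was -0.21. let-7b was at 816 intensity units in early arousal, 956 during late torpor and 1317 in post-reproduction, and let-7a at 2733, 3014 and 3238. In both, unscaled intensity was lowest in early arousal and highest in post-reproduction. All 9 were below 0 in every setting that measured them, and against the median only let-7g crossed, after quantile normalization. let-7 members differ from each other in few bases, and how much signal their probes share was not tested.

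The other families wholly below the median were smaller. miR-221 and miR-222, which act on the cell cycle inhibitor p27, were at -0.48 and -0.71, the lowest family median of those with several measured members (-0.59). miR-103 and miR-107, tied to insulin sensitivity in liver, were at -0.32 and -0.16. The 5′ arms of miR-199a and miR-199b were at -0.36 and -0.28. In these 3 families every member was below 0 in every setting. miR-148a, miR-148b and miR-152 were at -0.01, -0.15 and -0.60, so that miR-152 stood apart, and miR-148a was above 0 with the median scaling.

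Some families were divided. The widest was that of miR-34a, at -0.90, and miR-449a, at 0.75, a gap of 1.65 between miRNAs with a common seed, and no setting turned either sign. miR-23a was at -0.40 and miR-23b at 0.07. miR-27a was at -0.53 and miR-27b at -0.0015, a family that lay wholly below the median of all miRNAs but was also wide. Both pairs divide by their place in the genome, as the a and b forms come from separate clusters. The sign of miR-23b turned in 7 other settings and that of miR-27b in 3.

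By position, 28 groups of entries with at most 10 kb between neighbouring targets had at least 2 measured members and held 64 miRNAs. Of these, 18 held several hairpins and 10 only the arms of 1 hairpin. Among the 18, 6 had every measured member above 0, 5 had every member below 0 and 7 were mixed. Against the median of all 136, 6 were wholly above, 6 wholly below and 6 mixed. The distance of 50 kb gave 30 groups. It added miR-193 with miR-365 (median 0.36) and miR-99a with miR-125b-5p (0.08), and joined miR-30c to miR-30a.

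The cluster with the highest median, 0.52, was that of miR-17 to miR-92a on chromosome 14, with measured targets at 115443272 to 115443718. Its measured members, miR-19a, miR-20a, miR-19b and miR-92a, were at 0.29, 0.47, 0.58 and 0.57. miR-19b was at 328 intensity units in early arousal, 314 during late torpor and 249.5 in post-reproduction, with both hibernation arrays above the post-reproduction array. miR-19a turned below 0 under the all-probe and the control-probe scaling, and the other 3 were above 0 in every setting.

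Next was the pair of miR-15a and miR-16 on the same chromosome, at 62250773 to 62250933, with 0.57 and 0.45 and both above 0 in every setting. The erythroid pair miR-144 and miR-451, on chromosome 11 at 77886549 to 77886709, was unequal within itself, at 0.18 ± 0.04 and 0.53 ± 0.02. miR-144 was at 31.2 intensity units in early arousal, 76.4 during late torpor and 31.3 in post-reproduction, so that it stood out in late torpor alone. miR-144 was below 0 in 6 other settings. The cluster of miR-25, miR-93 and miR-106b, a paralog of the miR-17 cluster on chromosome 5 at 138606560 to 138607031, was at 0.31, 0.19 and 0.15, and all 3 turned below 0 under the all-probe scaling.

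On the lower side, the 5 clusters with several hairpins and every measured member below 0 kept that sign in each setting. miR-221 and miR-222 (X chromosome, 18723433 to 18724042), miR-200a and miR-200b (chromosome 4, 155429020 to 155429810), let-7c and let-7b (chromosome 15, 85537049 to 85537776) and miR-23a and miR-27a (chromosome 8, 86732465 to 86732646) had both measured members below 0 in every setting that measured them. Their medians were -0.59, -0.53, -0.48 and -0.46. miR-221 was at 204 intensity units in early arousal, 242 during late torpor and 323 in post-reproduction, and miR-27a at 123, 148 and 202. In both, the order was early arousal, late torpor, post-reproduction from low to high. The let-7d, let-7f and let-7a cluster on chromosome 13 (48631447 to 48633627) was wholly below 0 too, again in every setting, but let-7d at -0.45 stood apart from let-7f at -0.05 and let-7a at -0.06. Against the median of all miRNAs, every measured member of these 5 clusters stayed below, and every one of the 4 higher clusters (those of miR-92a, miR-15a, miR-144 and miR-25) stayed above, in each setting that measured it.

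**Figure D5:**
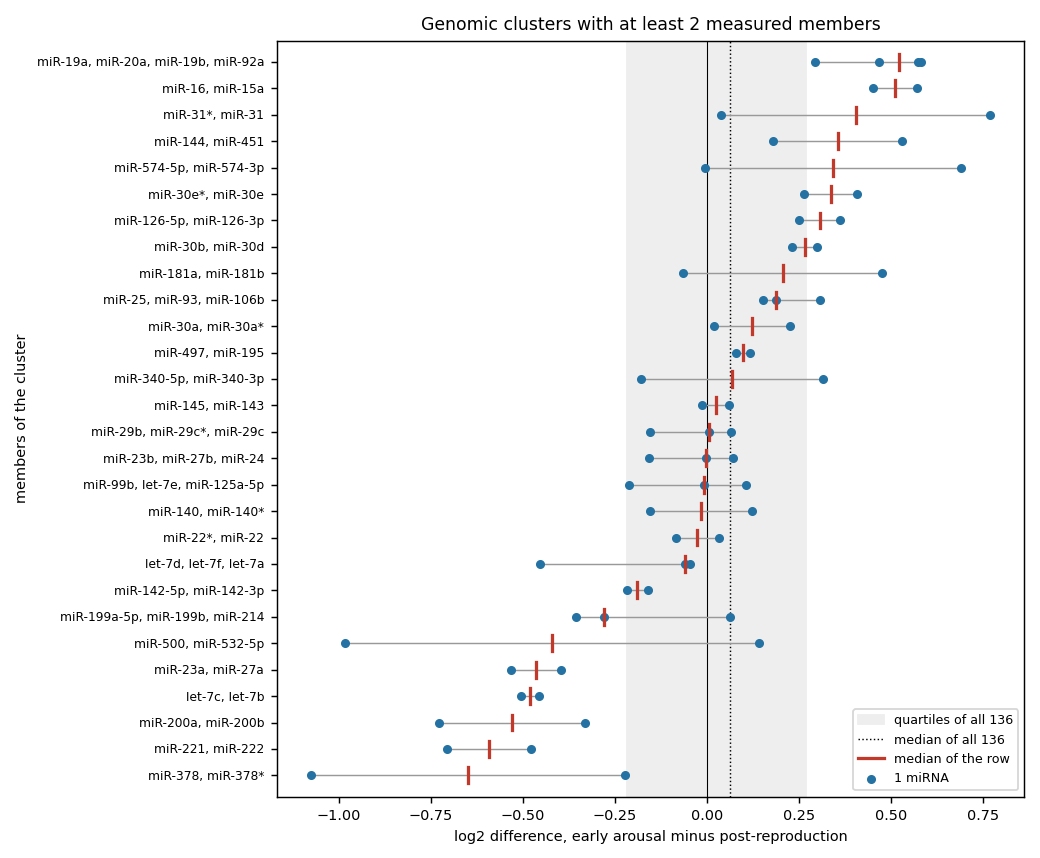
Log2 difference (horizontal axis) of every measured member (blue points) of the 28 genomic clusters with at least 2 measured members, with the cluster median (red bar), the median of all 136 (dotted line) and their quartiles (grey band). Clusters at the top and bottom lie outside the band with both or all of their points, while miR-500 and miR-532-5p lie far apart. Signs near 0 turn with the scaling, as for miR-25, miR-93 and miR-106b.

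In the paralogous clusters of miR-23 and miR-27 the a and b forms differed. miR-23b, miR-27b and miR-24 on chromosome 13, at 63401841 to 63402580, were at 0.07, -0.0015 and -0.16, against -0.40 and -0.53 for miR-23a and miR-27a. The probe of miR-24 cannot tell its copies in the 2 clusters apart, since both give the same mature miRNA. In the Clcn5 cluster, miR-500 at -0.98 and miR-532-5p at 0.14 ± 0.13 were the only measured members of 9 listed, and both were dim (11.8 and 13.6 intensity units in early arousal).

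For 12 hairpins both arms were measured, and the gap between the arms had a median of 0.18. As a description, the median gap was 0.16 over 33 pairs of miRNAs from different hairpins of 1 cluster, 0.24 over 89 pairs of 1 seed family and 0.37 over all 9180 pairs, and these pairs share miRNAs. In 8 of the hairpins the gap was at most 0.28, and the arms of miR-142, miR-126 and miR-199 were among the closest. The 3 widest gaps involved a miRNA past 1.5-fold. miR-378* was at -0.22 ± 0.07 (11.98 and 15.89 intensity units in early arousal and post-reproduction), against -1.08 for miR-378. miR-31 was at 0.04 ± 0.02 (125 and 138), against 0.77 for miR-31*. miR-574-3p was at -0.01 ± 0.06 (20.9 and 23.9), against 0.69 for miR-574-5p. miR-340-5p and miR-340-3p, next in width, were at 0.31 and -0.18. In each of these 4 hairpins, then, 1 arm was close to the bulk of all miRNAs or on the other side of it.

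Markers of cell types were read from fixed lists. The sums given here are of unscaled intensity, which lowers early arousal by 0.185 in log2 beside the scaled differences. A lower sum thus need not mean a lower scaled level. In early arousal miR-122 made up 33094 of the hepatocyte sum, and miR-451 1777 of the erythroid sum. Among all measured miRNAs 55.1% were above 0, with a median of 0.061. All 7 hepatocyte miRNAs were measured, 6 of them above 0 and above that median. Their own median was 0.16, with summed intensities of 38152 in early arousal and 39086 in post-reproduction. miR-192 and miR-194 were below 0 in 7 other settings, miR-122 in 6, miR-193 in 4 and miR-101a in 1. The highest was miR-365 at 0.48, which was above 0 in every setting. All 3 erythroid miRNAs were above 0 (miR-486 at 0.55, miR-451 at 0.53, miR-144 at 0.18), with sums of 1873 and 1481. In bulk RNA, fewer cells of a type and less RNA per cell cannot be told apart. Of the leukocyte list 6 of 7 were measured, with sums of 439 and 508 and a median of -0.19, and miR-155 was not detected in either. Of these 6, 2 were above 0 (miR-181a at 0.47 and miR-223 at 0.19) and 4 below. The 4 endothelial miRNAs were at 1169 and 1267 in sum, of which miR-126-3p gave 896 and 857. The arms of miR-126 were above 0 and miR-221 and miR-222 below. The 5 mesenchymal miRNAs were at 283 and 369.8 in sum, but 2 were above 0 and 3 below, with a median of -0.013. Only 1 of the 5 was above the median of all measured miRNAs. miR-214 and miR-145 were at 0.06 each, miR-143 at -0.013, miR-199b at -0.28 and miR-199a-5p at -0.36. Of the epithelial list, miR-200a and miR-200b were measured (65.0 and 111 in sum), and miR-200c, miR-141 and miR-429 were detected on neither array. No muscle or pancreatic miRNA was measured, and miR-128 was the 1 of 5 neural miRNAs that was, at 0.12. The part of cell makeup in any difference was not tested.

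Of a list of entries drawn up with earlier results of these data known, 5 of 14 were measured. Its entries are often questioned as miRNAs or thought to be bright for their sequence, which was not analysed here. miR-709, miR-1224 and miR-494 are 3 of the 4 miRNAs higher past 2-fold. The other 2 measured entries were not near them. miR-712 was at 0.26 ± 0.09, with its probes on both sides of 0 (0.53 and -0.01). miR-720, which matches a transfer RNA fragment, was at -0.30 ± 0.01 (2759 and 3852 intensity units). Of the listed entries not measured, miR-705, miR-188-5p and miR-671-5p were detected in early arousal and not in post-reproduction. The same held for miR-770-3p, miR-483 and miR-671-3p. In contrast, miR-762, miR-721 and miR-690 were detected on neither array. Whether the list's signal comes from miRNAs was not tested.

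The target in the probe design was short in several of these, 11 or 12 bases for the probes of miR-709. Over 134 measured miRNAs with a target position, the difference and target length had Spearman's rho of -0.014 and Pearson's r of -0.13, a description over probes that share 2 arrays. The 5 miRNAs with targets of at most 13 bases had a median of 0.062 but a range from -0.30 to 1.94, the 40 with 14 to 16 bases a median of 0.12, and the 89 with 17 or more -0.0089. Among entries not measured, the early arousal array was brighter in 30 of 56 (53.6%) with the shortest targets, 68 of 171 (39.8%) with 14 to 16 bases and 89 of 199 (44.7%) with 17 or more.

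By level, the dimmest 45 measured miRNAs had a median difference of -0.0089 (SD 0.37), the middle 45 a median of 0.039 (SD 0.54) and the brightest 46 a median of 0.14 (SD 0.39). Of the 16 past 1.5-fold, 2 were among the brightest, miR-1224 and miR-449a.

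Of the 431 entries that were not measured, 16 were detected only in early arousal, 7 only in post-reproduction and 408 in neither. Such an entry has a bound, its scaled level on the bright array over the higher of its own level and the dimmest spot well above background on the dim array. On the early arousal array 5 entries had a bound of at least 2-fold. miR-671-3p was at 31.3 intensity units in early arousal, 2.96 during late torpor and 1.75 in post-reproduction (at least 3.33-fold higher), and 1 of its 4 probes was detected. miR-483, from an intron of the imprinted growth factor gene Igf2, was at 30.1, 10.5 and 5.14 (at least 3.20-fold). In both, early arousal stood apart from the other arrays. The other arm of the miR-483 hairpin, miR-483*, was measured and lay on the other side of 0, at -0.33 ± 0.08. It was at 16.5 intensity units in early arousal and 23.6 in post-reproduction. miR-770-3p, miR-188-5p and miR-680 were at least 2.81-fold, 2.33-fold and 2.15-fold higher, and miR-680 was at 20.2, 11.6 and 1.78. All of these 5 except miR-680 are on the list of often questioned entries given above. The brightest probes of these 5 had targets of 11 to 13 bases. Targets of at most 13 bases belonged to 9 of the 16 entries detected only in early arousal (median 13 bases). In post-reproduction it was 2 of the 7 (median 16). By mean target length, 56 of all entries not measured were that short, beside 171 with 14 to 16 bases and 199 longer. The part of target length was not tested.

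In post-reproduction 2 entries had such a bound. miR-211, a seed relative of miR-204, was at 6.72 intensity units in early arousal, 10.99 during late torpor and 38.8 in post-reproduction, at least 3.37-fold higher in post-reproduction, and 3 of its probes were detected there. miR-204 itself was measured, at -0.10 ± 0.06. miR-190b was at 7.53, 21.7 and 25.3, at least 2.20-fold higher in post-reproduction. Most of these entries are dim: 13 of the 16 and 6 of the 7 were below the level of a viral miRNA entry (22.2 intensity units in early arousal and 26.5 in post-reproduction) that squirrel liver should lack. Above that level in early arousal were miR-671-3p, miR-483 and miR-770-3p. This level is that of the viral entry's brightest probe. Some measured miRNAs lay under it too, among them miR-378* on both compared arrays (11.98 and 15.89, 1 probe). The means over probes of miR-500 (11.8 and 26.4) and miR-574-3p (20.9 and 23.9) were also under it on both. However, the brightest probe of miR-500 was above it in post-reproduction (27.4), and that of miR-574-3p on both arrays (31.4 and 34.8). miR-452 was under the viral level in post-reproduction alone (20.8, and 23.4 on its brightest probe). The muscle miRNAs miR-1 and miR-133b were at 10.7 and 10.7 in early arousal and at 7.77 and 8.59 in post-reproduction. Of these arrays, only early arousal detected them. The late torpor array detected both too and was the highest, at 17.4 and 21.25.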

How the data were processed

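Per the submitters' processing notes, scans were quantified by Agilent Feature Extraction 9.5.3.1. The deposited intensity of a spot is the processed signal, after a fitted spatial background was subtracted, per the file headers, and the flags for detection and for outliers that the authors deposited are other values from that program. At 12493 of 12493 spots per array the deposited series table gave an equal intensity (tolerance 0.001).

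Control spots and outlier spots (398 in early arousal, 317 in post-reproduction) were left out. A probe was detected if over 50% of the spots kept for it carried the flag for signal well above background. Log2 intensity was averaged per probe, scaled to the 75th percentile, and averaged per miRNA over probes detected on both arrays. Python 3.11.15 was used for this, and limma 3.58.1 in R 4.3.3 for normexp (offset 50). The script was tested on simulated data. The number of arrays limits the precision.

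Seed families were assigned by name from general knowledge and not by sequence, as no table of mature sequences was used here, so GC content and printed sequences were not analysed here. Positions are those of the mouse targets in the files (mm9). Named are all miRNAs past 1.5-fold, the 10 highest and 10 lowest, the extremes of and examples from families and clusters, marker miRNAs, bounds of at least 2-fold and the other arm of any of these. Members and lists were chosen with earlier results of these data known. Alternatives changed the scaling, background correction, detection, probe summary, dim filter, outlier flags and cluster distance, and the scaling on positive control probes was added after seeing the data.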

Additional observations from a re-analysis of the deposited data

Results flagged for a closer look

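Signal outside the comparison came from a viral miRNA entry and from positive control probes. The viral entry mghv-miR-M1-2, which squirrel liver should lack, read 22.2 intensity units for early arousal and 26.5 for post-reproduction on its brightest probe, and was the 1 of 10 viral entries detected on each of these arrays. Positive control probes were brighter in early arousal before scaling. The unscaled log2 differences were 0.13 for hur_1, 0.21 for hur_2, 0.080 for hur_4, 0.041 for hur_6 and 0.23 for mr_1. What these probes read is not stated in the files, and their part in the differences was not tested.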

How the results depend on the processing

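No measured miRNA past 1.5-fold changed sign under any alternative. Past 2-fold, 4 miRNAs were higher and 1 lower as reported. With all probes in the scaling the counts were 2 and 8, with control probes (chosen after seeing the data) 2 and 6, with strict detection 2 and 2, and with normexp 2 and 0. In the brighter part of the miRNAs 2 were higher. The lower count was 3 with unfloored probes, without scaling and with total gene signal, and 2 with quantile normalization and with outlier spots kept. Past 1.5-fold, 7 were higher and 9 lower. With all probes the counts were 4 and 35, with control probes 4 and 27, with strict detection 4 and 24, with total gene signal 4 and 23, without scaling 4 and 17, with normexp 4 and 0 and in the brighter part 3 and 2. With unfloored probes 17 were lower, and with the median scaling 11 were higher. The median difference of 0.061 was -0.31 with all probes, -0.24 with control probes, -0.21 with total gene signal, -0.20 with strict detection and 0.10 with the median scaling. The all-probe, control-probe and median scalings move all differences together. Strict detection and total gene signal also change which probes are used or how they are summarized. Strict detection also sets which probes enter the scaling. With it, the miRNAs past 1.5-fold that it measured kept nearly the same distance from the median, as for miR-709 (1.88 in both) and miR-378 (-1.14 in both). The cause of the changes with strict detection, total gene signal and the other settings was not tested. The normexp correction adds an offset of 50, which draws the differences of dim miRNAs toward 0. No paired analysis was possible because each stage has 1 array. Leaving out a replicate was not possible either. Levels near the floor of 10.1 to 10.7 intensity units limit what can be read, and spot errors say nothing about animals.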
